A study of Mus musculus with 14 samples.

Results

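The prostaglandin genes examined here were 10 genes chosen by symbol, comprising the cyclooxygenases Ptgs1 and Ptgs2, the terminal synthases Ptges, Ptgis and Ptgds, and the receptors Ptger1, Ptger2, Ptger3, Ptger4 and Ptgfr. A feature of the array was taken as a member when it carried one of these as its single gene symbol, which gave 9 of the 10 genes, with 1 feature each, among 22206 features (19572 of them with 1 gene symbol). Ptgs1 was not analysed here. The set was chosen because Ptgs2 fell with shYAP and differed between the active mutants, so the values of the members in those 2 comparisons are given as a description, with no test. RNA was measured on 14 Clariom S Mouse arrays, 2 from independent biological samples for each of 7 groups, and every group consisted of mouse embryonic fibroblasts (MEFs) collected 2 weeks after retroviral transduction with Gata4, Hand2, Mef2c and Tbx5 (GHMT). The groups were GHMT on soft 8 kPa hydrogels (GHMT/8 kPa) against GHMT on stiff 126 kPa hydrogels (GHMT/126 kPa), GHMT on 126 kPa with lentiviral shYAP or shTAZ against lentiviral Scramble shRNA, and GHMT on 8 kPa with the retroviral, constitutively active mutants YAP-5SA and TAZ-4SA. No group without GHMT was included among these arrays, and each RNA came from a whole culture in which reprogrammed and unreprogrammed cells were not separated. Fewer cells of a type and less RNA per cell cannot be told apart in such samples.

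Prostanoids are lipid mediators made from arachidonic acid. Cytosolic phospholipase A2 frees the acid from membranes, the cyclooxygenases COX-1 (Ptgs1) and COX-2 (Ptgs2) oxygenate it to prostaglandin H2, and terminal synthases turn this into prostaglandin E2 (Ptges), prostacyclin (Ptgis) or prostaglandin D2 (Ptgds, Hpgds). Ptgs2 is known as an inducible early gene of fibroblasts and macrophages that responds to cytokines, growth factors and serum, whereas COX-1 is usually held to be constitutive. The receptors of prostaglandin E2 are EP1 to EP4, encoded by Ptger1 to Ptger4. EP2 and EP4 raise cyclic AMP, EP3 mostly lowers it, and EP1 and the prostaglandin F receptor (Ptgfr) act mainly through calcium.

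The start regions of Ptgs2 and Ptger4 are shown because these were the members with the widest spread between the active mutants. Both come from RefSeq on GRCm38.p6 and run from 250 bases before to 50 bases after the annotated gene start, read 5′ to 3′ along the strand of the gene. Ptgs2 lies at chr1:150099781-150100080 on the plus strand, and Ptger4 at chr15:5244138-5244437 on the minus strand, while the genes span chr1:150100031-150108234 and chr15:5233399-5244187. Capitals mark a match to any of 5 motifs searched on both strands, namely the TEAD motif CATTCC, the cAMP response element TGACGT, the AP-1 motif TGANTCA, the E-box CACGTG and the TATA box TATAAA.
Ptgs2: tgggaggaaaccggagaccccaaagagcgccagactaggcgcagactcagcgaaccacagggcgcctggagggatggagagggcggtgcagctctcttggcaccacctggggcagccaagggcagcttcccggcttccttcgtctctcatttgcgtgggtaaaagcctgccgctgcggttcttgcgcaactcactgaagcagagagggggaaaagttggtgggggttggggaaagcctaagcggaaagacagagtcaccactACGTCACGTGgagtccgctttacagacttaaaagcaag
Ptger4: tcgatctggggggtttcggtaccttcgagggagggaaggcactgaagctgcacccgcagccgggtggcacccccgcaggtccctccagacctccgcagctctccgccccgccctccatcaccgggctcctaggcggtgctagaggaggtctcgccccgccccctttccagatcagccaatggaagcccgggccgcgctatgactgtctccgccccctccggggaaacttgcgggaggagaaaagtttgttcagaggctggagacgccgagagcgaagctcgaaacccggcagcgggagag
The Ptgs2 window held a cAMP response element on the minus strand, at position 13 after the annotated start. An E-box at position 17 overlaps it by the letters CA. Whether transcription begins at the annotated start was not tested, so these positions do not place the matches inside the transcript. The Ptger4 window held none of the 5 motifs. A cAMP response element occurred in 7.51% and an E-box in 7.15% of all 32851 promoters of 300 bases in the table, so neither match is rare. The other motifs were found in 14.7% (TEAD motif), 7.81% (AP-1 motif) and 13.6% (TATA box) of those promoters. Of the 10 genes, 8 had a window. The Ptges window held a TEAD motif at position -151 and that of Ptgds an AP-1 motif at position -35. These 2 windows, chr2:30903248-30903547 and chr2:25469700-25469999, lie inside the gene spans, chr2:30889471-30931020 and chr2:25466709-25470110. Their positions are thus relative to a start within the gene span, not to its 5′ end. These matches describe letters only.

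Every deposited value is a log2 ratio, and a difference below is a group mean minus the mean of its comparison group, in log2, with its SE and Benjamini-Hochberg adjusted p from limma over all features. Ratios are relative to the mean of GHMT/126 kPa in the stiffness set and to the mean of Scramble in the shRNA set. The reference of the mutant set is not stated, so values are compared only within a set. Yap1, the target of shYAP, was at -0.89 and -0.88 in the shYAP arrays, against -0.11 and 0.11 in the Scramble arrays (difference -0.88, SE 0.12, adjusted p = 0.0498 from limma). This call was lost without either shYAP array (0.304 and 0.268) and without Scramble array 1 (0.0502). Wwtr1, which encodes TAZ, was at -0.36 and -0.31 in the shTAZ arrays, against -0.25 and 0.25 in the Scramble arrays, and did not pass the test (difference -0.34, SE 0.17, adjusted p = 0.43 from limma). The paper reports lower YAP and TAZ with their shRNAs by qRT-PCR and western blotting, which are other measures than these arrays. The 2 Scramble arrays stood apart. Scramble array 1 was at least 2-fold higher than array 2 for 494 features and at least 2-fold lower for 77. The median of 19 macrophage and leukocyte markers was 1.15 in Scramble array 1 and -1.15 in array 2. As ratios carry no signal level, the presence of fibroblast or macrophage markers could not be checked in absolute terms, only their differences.

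Ptgs2 was the member that varied most over the 14 arrays, with an SD of 0.94 around the means of the 3 sets, against 0.20 to 0.78 for the other 8. This SD includes the arrays by which Ptgs2 was chosen, so its rank is a description only. In the mutant set Ptgs2 was at -0.57 and -0.56 in YAP-5SA arrays, against -3.02 and -3.11 in TAZ-4SA arrays. The 2 groups lay far apart with close replicates, and the means differed by 2.50 in log2, or 5.67-fold. In the shRNA set it was at -2.45 and -1.90 in shYAP arrays and at -1.44 and -1.33 in shTAZ arrays, against 0.30 and -0.30 in Scramble arrays. None of the 3 groups overlapped, and the order was shYAP, shTAZ, Scramble from low to high. Both comparisons that the choice rested on are thus described without a test, as is the difference between shYAP and shTAZ arrays (-0.79), which shares the shYAP arrays. The mean with shYAP was 2.17 below that with Scramble in log2, or 4.51-fold lower.

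With shTAZ, Ptgs2 was 1.39 below Scramble in log2 (2.61-fold lower, SE 0.25 over 2 arrays in each group, limma adjusted p = 0.121). This comparison shares its Scramble arrays with the one that chose the gene. No p-value of Ptgs2 here is thus independent of the choice, and none is taken as support. Ptgs2 did not pass the test over all features, in which no feature at all passed. An unadjusted p under 0.05 was reached by 1921 features that were higher and 1263 that were lower. In a fit of all 14 arrays together, the adjusted p of Ptgs2 was 0.00982 (limma). Without Scramble array 2 its difference was -1.68, with 1 Scramble array left. The difference was -1.09 without Scramble array 1, and -1.33 and -1.44 without shTAZ array 1 or 2. After quantile normalization it was -1.05 (SE 0.41, adjusted p = 0.917 from limma). That setting gives all arrays of a set 1 distribution, although the SD over features was 0.20 in Scramble arrays, against 0.44 and 0.45 in shTAZ arrays. On the soft gel Ptgs2 was at -0.38 and -0.28 in GHMT/8 kPa arrays, against -0.09 and 0.09 in GHMT/126 kPa arrays. The groups did not overlap, yet the difference of -0.33 (SE 0.15) did not pass the test (adjusted p = 0.522 from limma), and 22.3% of all features differed more. The difference with stiffness was thus smaller in size than either knockdown difference, although the sets were not tested against each other.

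**Figure D1:**
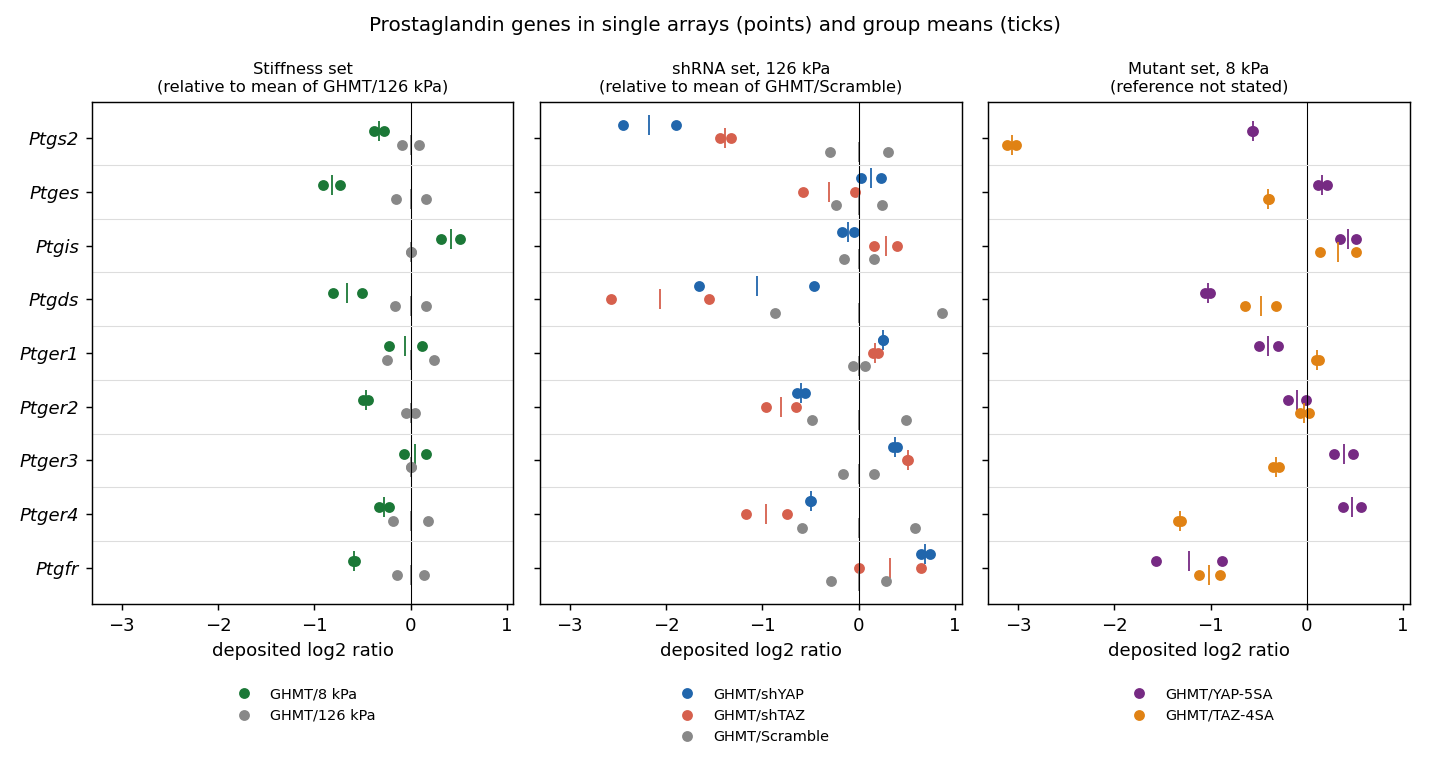
Deposited log2 ratios of the 9 measured prostaglandin genes in each of the 14 arrays (points) with the mean of the 2 arrays of a group (ticks), in 3 panels for the stiffness, shRNA and mutant sets, each with a reference of its own. Ptgs2 lies lowest in the TAZ-4SA arrays (-3.02 and -3.11) of the mutant set and in the shYAP arrays (-2.45 and -1.90) of the shRNA set, whereas Ptgds, Ptger2 and Ptger4 are spread widely between the 2 Scramble arrays.

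Ptges, the inducible synthase of prostaglandin E2, had the largest difference of the members with stiffness. It was at -0.91 and -0.73 in GHMT/8 kPa arrays, against 0.16 and -0.16 in GHMT/126 kPa arrays. The soft arrays lay below both stiff arrays, by a mean of 0.82 in log2 (1.77-fold lower, SE 0.17), and only 2.13% of features differed more, but the adjusted p was 0.244 (limma). In the shRNA set Ptges was at 0.23 and 0.02 in shYAP arrays and at -0.04 and -0.57 in shTAZ arrays, against -0.24 and 0.24 in Scramble arrays. Its values overlapped between each knockdown and Scramble, and the difference with shTAZ was -0.31 (SE 0.23, adjusted p = 0.588 from limma). In the mutant set it was at 0.11 and 0.21 in YAP-5SA arrays, against -0.41 and -0.40 in TAZ-4SA arrays, a difference of 0.56. Ptgs2 and Ptges thus differed in the same direction between the mutants and with stiffness, and in different directions from Scramble with shYAP, where the Ptges groups overlapped.

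Ptgis, the prostacyclin synthase, was the only one of the 3 synthases among the members with a higher mean on the soft gel. It was at 0.51 and 0.32 in GHMT/8 kPa arrays, against 0.00 in both GHMT/126 kPa arrays, and the difference of 0.42 (SE 0.15) did not pass the test (adjusted p = 0.426 from limma). With shTAZ it was at 0.39 and 0.16, against -0.16 and 0.16 in Scramble arrays (difference 0.28, SE 0.15, adjusted p = 0.455 from limma). The shYAP arrays, at -0.05 and -0.18, lay below both shTAZ arrays, with a difference between the knockdowns of -0.39 (SE 0.15, adjusted p = 0.605 from limma). YAP-5SA and TAZ-4SA arrays overlapped for Ptgis (0.51 and 0.35 against 0.51 and 0.14). Its SD around the set means was 0.20, at the low end of the members.

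Ptgds, the lipocalin-type prostaglandin D synthase, was scattered within groups. It was at -0.81 and -0.51 in GHMT/8 kPa arrays, against -0.16 and 0.16 in GHMT/126 kPa arrays (difference -0.66, SE 0.19, adjusted p = 0.365 from limma). In the shRNA set it was at -1.66 and -0.46 in shYAP arrays and at -2.57 and -1.55 in shTAZ arrays, against -0.87 and 0.87 in Scramble arrays. The shYAP arrays overlapped the Scramble arrays, with a mean difference of -1.06 that turned to 0.0395 after quantile normalization, and the shTAZ arrays lay below both of them by a mean of 2.06 (4.17-fold, SE 0.66, adjusted p = 0.259 from limma). Scramble array 1 was 1.74 below Scramble array 2 for Ptgds, a wider gap than for any other member. In the mutant set it was at -1.003 and -1.05 in YAP-5SA arrays, against -0.64 and -0.32 in TAZ-4SA arrays, and the means of 4 members (Ptgds, Ptger1, Ptger2 and Ptgfr) were lower with YAP-5SA.

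Among the receptors, Ptger4, which encodes EP4, had the largest difference between the mutants. It was at 0.38 and 0.56 in YAP-5SA arrays, against -1.31 and -1.33 in TAZ-4SA arrays, a difference of 1.79 in log2 or 3.46-fold. The 2 members that were at least 2-fold higher with YAP-5SA were Ptgs2 and Ptger4, of 9, beside 0.71% of all 22127 features tested, and none was 2-fold lower, beside 0.701%. In the shRNA set Ptger4 was at -0.49 and -0.50 in shYAP arrays and at -0.75 and -1.18 in shTAZ arrays, against 0.59 and -0.59 in Scramble arrays. Both shYAP arrays lay between the 2 Scramble arrays. The shTAZ arrays lay below both, with a difference of -0.96 (SE 0.36, adjusted p = 0.315 from limma). On the soft gel Ptger4 was at -0.33 and -0.23, against -0.18 and 0.18 on the stiff gel (difference -0.28, SE 0.18, adjusted p = 0.641 from limma). Over the 14 arrays, centred on the mean of each set, Ptger4 had the highest Pearson r with Ptgs2 of any member (0.82), a value that includes the mutant arrays by which the genes were chosen.

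Ptger2, which encodes EP2, was at -0.49 and -0.44 in GHMT/8 kPa arrays, against -0.05 and 0.05 in GHMT/126 kPa arrays (difference -0.46, SE 0.14, adjusted p = 0.367 from limma). It was at -0.64 and -0.56 in shYAP arrays and at -0.65 and -0.96 in shTAZ arrays, against 0.49 and -0.49 in Scramble arrays. Both knockdowns lay below both Scramble arrays, with gaps to array 2 that were smaller than the gap between the Scramble arrays. The difference with shTAZ was -0.81 (SE 0.30, adjusted p = 0.313 from limma). The mutants overlapped for Ptger2, at -0.01 and -0.20 in YAP-5SA arrays, against -0.08 and 0.02 in TAZ-4SA arrays. Of EP2 and EP4, the prostaglandin E2 receptors known to raise cyclic AMP, only that encoded by Ptger4 thus had mutant groups that did not overlap.

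Ptger3, the EP3 receptor, went the other way from Ptger2 and Ptger4 in the shRNA set. It was at 0.36 and 0.40 in shYAP arrays and at 0.51 in both shTAZ arrays, against -0.16 and 0.16 in Scramble arrays. The knockdown arrays lay above both Scramble arrays, and the difference with shTAZ was 0.51 (SE 0.13, adjusted p = 0.19 from limma). YAP-5SA arrays were at 0.28 and 0.48, against -0.29 and -0.35 in TAZ-4SA arrays, a difference of 0.70. With stiffness the groups overlapped (-0.07 and 0.17 on 8 kPa against 0.00 in both arrays on 126 kPa).

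Ptger1, the EP1 receptor, had a small spread, with an SD of 0.20 around the set means. Ptger1 was at -0.50 and -0.30 in YAP-5SA arrays, against 0.09 and 0.12 in TAZ-4SA arrays, the opposite order to Ptgs2. In shYAP arrays it was at 0.25 in both and in shTAZ arrays at 0.15 and 0.20, against -0.06 and 0.06 in Scramble arrays, and the difference with shTAZ was 0.17 (SE 0.10, adjusted p = 0.494 from limma). The soft and stiff arrays overlapped. Ptgfr, the receptor of prostaglandin F2 alpha, was at -0.58 and -0.59 in GHMT/8 kPa arrays, against -0.14 and 0.14 in GHMT/126 kPa arrays (difference -0.59, SE 0.16, adjusted p = 0.34 from limma). With the knockdowns it lay the other way, at 0.65 and 0.74 in shYAP arrays and at 0.64 and 0.00 in shTAZ arrays, against -0.29 and 0.29 in Scramble arrays. Only the shYAP arrays were clear of Scramble, with a mean difference of 0.69, and the difference with shTAZ was 0.32 (SE 0.26, adjusted p = 0.615 from limma). The mutants overlapped for Ptgfr (-1.57 and -0.88 with YAP-5SA against -1.12 and -0.90 with TAZ-4SA).

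Counted over the 9 members, 7 were lower and 2 higher on the soft gel, with a median difference of -0.33, against a median of 0.03 over all features tested. None passed the test with limma, beside 0.0721% of 22206 features, and none differed 2-fold, beside 1.13%. At an unadjusted p under 0.05, 4 members were lower, beside 4.69% of features, and 1 was higher, beside 5.95%. In the 14-array fit no member passed either. The 2 groups did not overlap for 7 of 9 members, beside 42% of all features. The 19 macrophage and leukocyte markers were all lower on 8 kPa, with a median difference of -1.40, beside 9839 lower of all 22206 features. All 6 smooth muscle markers were lower too (median -0.47). Of 9 fibroblast markers, 6 were lower and 3 higher (median -0.34), and of 7 endothelial markers, 6 were higher. The part of any of these cells in the lower prostaglandin genes was not tested. With shTAZ, 5 members were lower and 4 higher than with Scramble (median -0.31, against 0.04 over all features). None passed in limma, beside 0% of 22122 features. At an unadjusted p under 0.05, 4 members were lower, beside 5.71% of features, and 1 was higher, beside 8.68%. The groups did not overlap for 7 of 9 members, beside 46.5% of features. Ptgs2 and Ptgds were at least 2-fold lower, beside 1.95% of features, and no member was 2-fold higher, beside 0.258%. Between shYAP and shTAZ arrays none of the 8 members tested passed, beside 0.0452% of features, and 1 of them, Ptgis, had an unadjusted p under 0.05, beside 8.1%. The knockdown arrays did not overlap for 8 of all 9 members, beside 44.1% of features. With shYAP, Ptgs2 and Ptgds were at least 2-fold lower than with Scramble, beside 1.93% of features, no member was 2-fold higher, beside 0.529%, and the groups did not overlap for 5 of 9, beside 50.6%. Between the mutants the groups did not overlap for 6 of 9 members, beside 45.7%. Nothing is read from the counts with shYAP and between the mutants, since the choice of members used those comparisons. The 2 knockdowns share the Scramble arrays, so their members' values stand side by side only. The counts with shTAZ, and the 8 of 9 between the knockdowns, include Ptgs2. Its choice used the Scramble and shYAP arrays, so these counts are a description too.

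**Figure D2:**
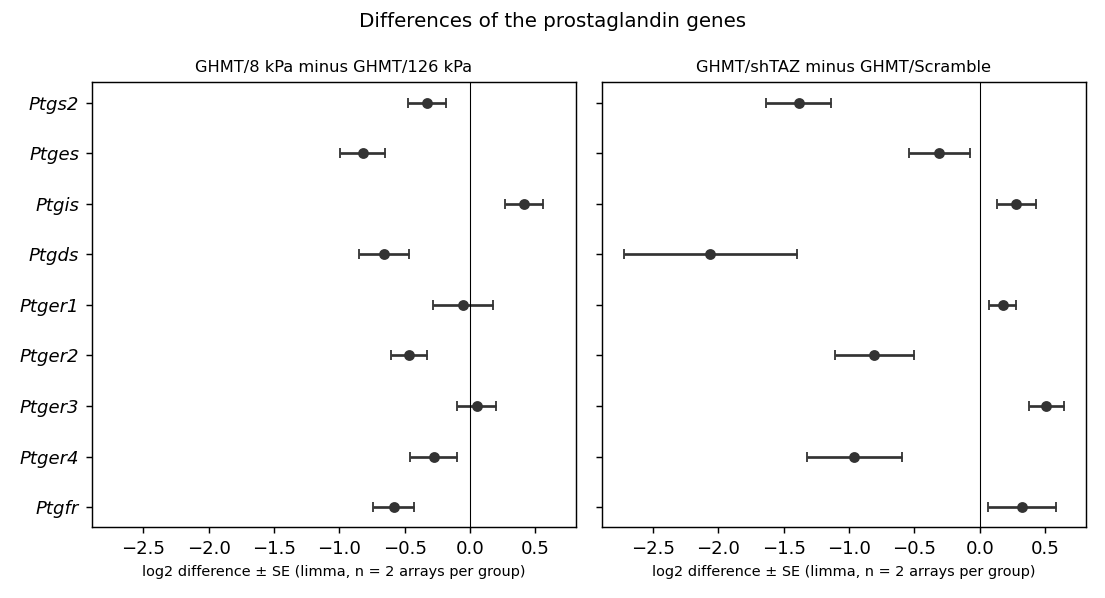
Differences in log2 (points) with their SE (bars, limma, 2 arrays a group) of the 9 measured prostaglandin genes for GHMT/8 kPa minus GHMT/126 kPa and for GHMT/shTAZ minus GHMT/Scramble. No adjusted p was under 0.05. Ptges lies farthest from 0 with stiffness (-0.82), and Ptgds (-2.06) and Ptgs2 (-1.39) with shTAZ.

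The width of several differences in the shRNA set came with the gap between the Scramble arrays. Scramble array 1 was above array 2 by 1.17 for Ptger4, 0.98 for Ptger2 and 0.60 for Ptgs2, and below it by 1.74 for Ptgds and 0.57 for Ptgfr. The median of the macrophage and leukocyte markers was -2.24 and -3.75 in shYAP arrays and -4.97 and -4.76 in shTAZ arrays, against 1.15 and -1.15 in Scramble arrays. All 19 markers were at least 2-fold lower with either knockdown, beside 1.93% of all features with shYAP and 1.95% with shTAZ. In the YAP-5SA arrays that median was -2.75 and -0.98, against -2.19 and -3.20 in TAZ-4SA arrays. Of 6 mesothelial markers, 5 were higher with YAP-5SA than with TAZ-4SA, with a median difference of 1.42. Of the 5, 4 were at least 2-fold higher, beside 0.71% of all features. The 2 that passed the test were Upk1b and Upk3b, beside 0.895% of all features. The part of these cells in the values of Ptgs2, Ptger2, Ptger4 and the other members was not tested. With each array left out in turn, the differences with shTAZ ran over -1.68 to -1.09 for Ptgs2 and -1.30 to -0.32 for Ptger2. They ran over 0.35 to 0.67 for Ptger3 and -1.55 to -0.37 for Ptger4.

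**Figure D3:**
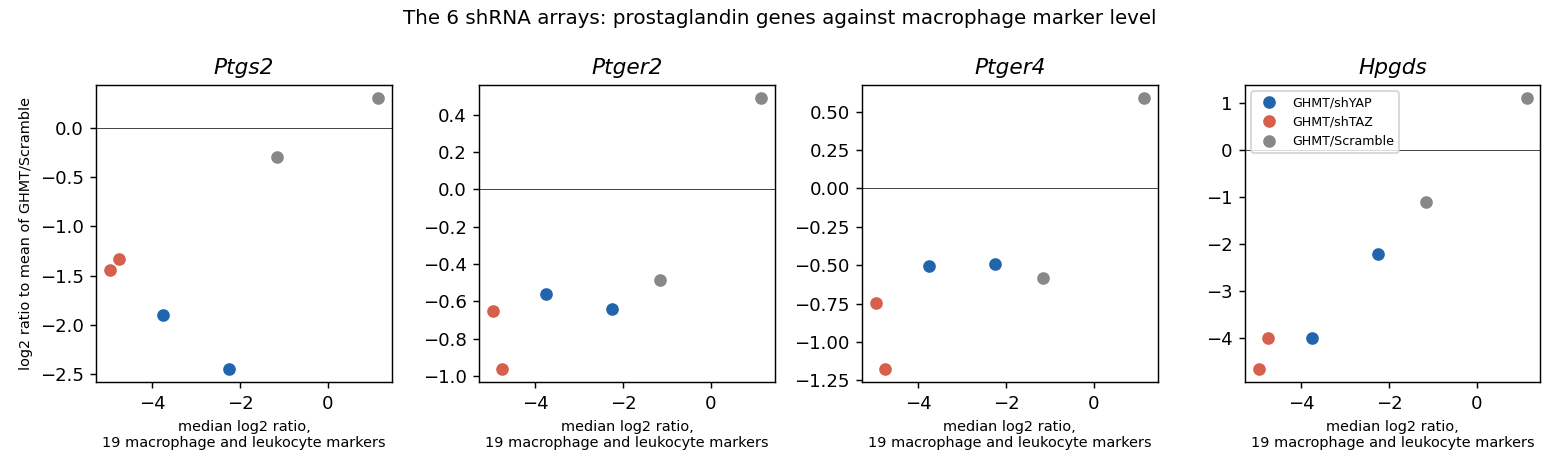
The 6 arrays of the shRNA set, with the log2 ratio of Ptgs2, Ptger2, Ptger4 and Hpgds on the vertical axes and the median log2 ratio of 19 macrophage and leukocyte markers on the horizontal axes. Scramble array 1 is highest on both axes in each panel, the lowest Ptgs2 values (-2.45 and -1.90) are those of the shYAP arrays, and the lowest Hpgds value (-4.67) is that of a shTAZ array. The part of the marker level in any of the 4 genes was not tested.

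Upstream of the cyclooxygenases, 10 genes of arachidonate release were measured. Pla2g4a, the cytosolic phospholipase A2 that supplies COX-2 with substrate, was at -1.28 and -1.20 in shYAP arrays and at -1.27 and -1.44 in shTAZ arrays, against -0.07 and 0.07 in Scramble arrays. Both knockdowns lay well below Scramble with close replicates. It fell with shYAP by 1.24 in log2 (2.36-fold lower, SE 0.11, adjusted p = 0.0238 from limma) and was the 1 gene of this list that passed there, beside 0.533% of all features, with a median over the list of 0.11 against 0.05 over all features. The difference with shTAZ, -1.35, did not pass (SE 0.11, adjusted p = 0.0568 from limma). The call with shYAP was lost when either shYAP array was left out (adjusted p = 0.23 and 0.22), when arrays were quantile normalized (0.305) and with the replicate number as a block (0.0583). In the mutant set Pla2g4a was at -0.12 and 0.27 in YAP-5SA arrays, against -1.25 and -0.67 in TAZ-4SA arrays (difference 1.04, SE 0.23, adjusted p = 0.127 from limma). On the soft gel it was at -0.12 and -0.33, against 0.06 and -0.06 on the stiff gel, where it did not pass (difference -0.23).

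Acsl4, which couples arachidonic acid to coenzyme A, was at -0.97 and -0.80 in shYAP arrays and at -0.35 and -0.33 in shTAZ arrays, against 0.18 and -0.18 in Scramble arrays. The difference with shYAP, -0.88, did not pass the test (SE 0.15, adjusted p = 0.0757 from limma). YAP-5SA arrays were at -0.33 and -0.13, against -0.95 and -0.77 in TAZ-4SA arrays (difference 0.63, SE 0.16, adjusted p = 0.155 from limma). Mgll, the lipase that releases arachidonate from the endocannabinoid 2-arachidonoylglycerol, lay the other way, at 0.87 and 0.57 in GHMT/8 kPa arrays, against 0.14 and -0.14 in GHMT/126 kPa arrays (difference 0.72, SE 0.18, adjusted p = 0.321 from limma). No gene of this list passed with stiffness, with shTAZ, between the knockdowns or between the mutants, and 2, 3, 1 and 3 of 10 in that order had an unadjusted p under 0.05, beside 10.6%, 14.4%, 8.1% and 13.5% of all features.

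Of 6 other prostanoid synthases, none passed in any of the 5 comparisons, and at most 3 had an unadjusted p under 0.05 in any of them. This count, all lower, was reached with shYAP, where 7.39% of all features were lower at that threshold, and with shTAZ (5.71%). Hpgds, the hematopoietic prostaglandin D synthase, was at -1.38 and -1.27 in GHMT/8 kPa arrays, against 0.24 and -0.24 in GHMT/126 kPa arrays (difference -1.32, SE 0.20, adjusted p = 0.151 from limma). In the shRNA set it was at -2.21 and -4.02 in shYAP arrays and at -4.67 and -4.01 in shTAZ arrays, against 1.10 and -1.10 in Scramble arrays. Tbxas1, the thromboxane synthase, was at -1.76 and -2.45 with shYAP and at -2.83 and -2.40 with shTAZ, against 0.98 and -0.98 with Scramble. Both enzymes are known from macrophages, and both were higher in Scramble array 1 than in array 2, as the macrophage markers were. Whether the macrophage level set them was not tested. Among the 4 other prostanoid receptors (Ptgir, Ptgdr, Ptgdr2 and Tbxa2r) none passed, and the largest difference was that of Ptgir, the prostacyclin receptor, with shTAZ (-0.43, SE 0.14, adjusted p = 0.252 from limma).

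Hpgd, the enzyme that inactivates prostaglandin E2, was the member of the transport and breakdown list that passed between the mutants, 1 of 7, beside 0.895% of all features. It was at -1.75 and -1.76 in YAP-5SA arrays, against -0.34 and -0.45 in TAZ-4SA arrays. It fell by 1.36 in log2 with YAP-5SA relative to TAZ-4SA (2.56-fold lower, SE 0.14, adjusted p = 0.0174 from limma), the opposite order to Ptgs2 and Ptger4. The call was lost in the 14-array fit (adjusted p = 0.27), where its SE was 0.56, and with an ordinary t without moderation (adjusted p = 0.429). In the shRNA set Hpgd was at -1.73 and -1.98 in shYAP arrays and at -2.98 and -3.07 in shTAZ arrays, against 1.28 and -1.28 in Scramble arrays (adjusted p = 0.248 and 0.169 from limma). On the soft gel it was at -1.04 and -0.61, against 0.01 and -0.01 on the stiff gel (difference -0.82, SE 0.19, adjusted p = 0.281 from limma). Slco2a1, the prostaglandin uptake carrier, was at 0.81 and 1.04 on 8 kPa, against -0.16 and 0.16 on 126 kPa (difference 0.92, SE 0.18, adjusted p = 0.223 from limma). None of the 8 lipoxygenase and leukotriene genes passed in any comparison, and the largest difference was that of the leukotriene receptor Cysltr1 with shTAZ (-2.33, SE 0.61, adjusted p = 0.194 from limma).

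**Figure D4:**
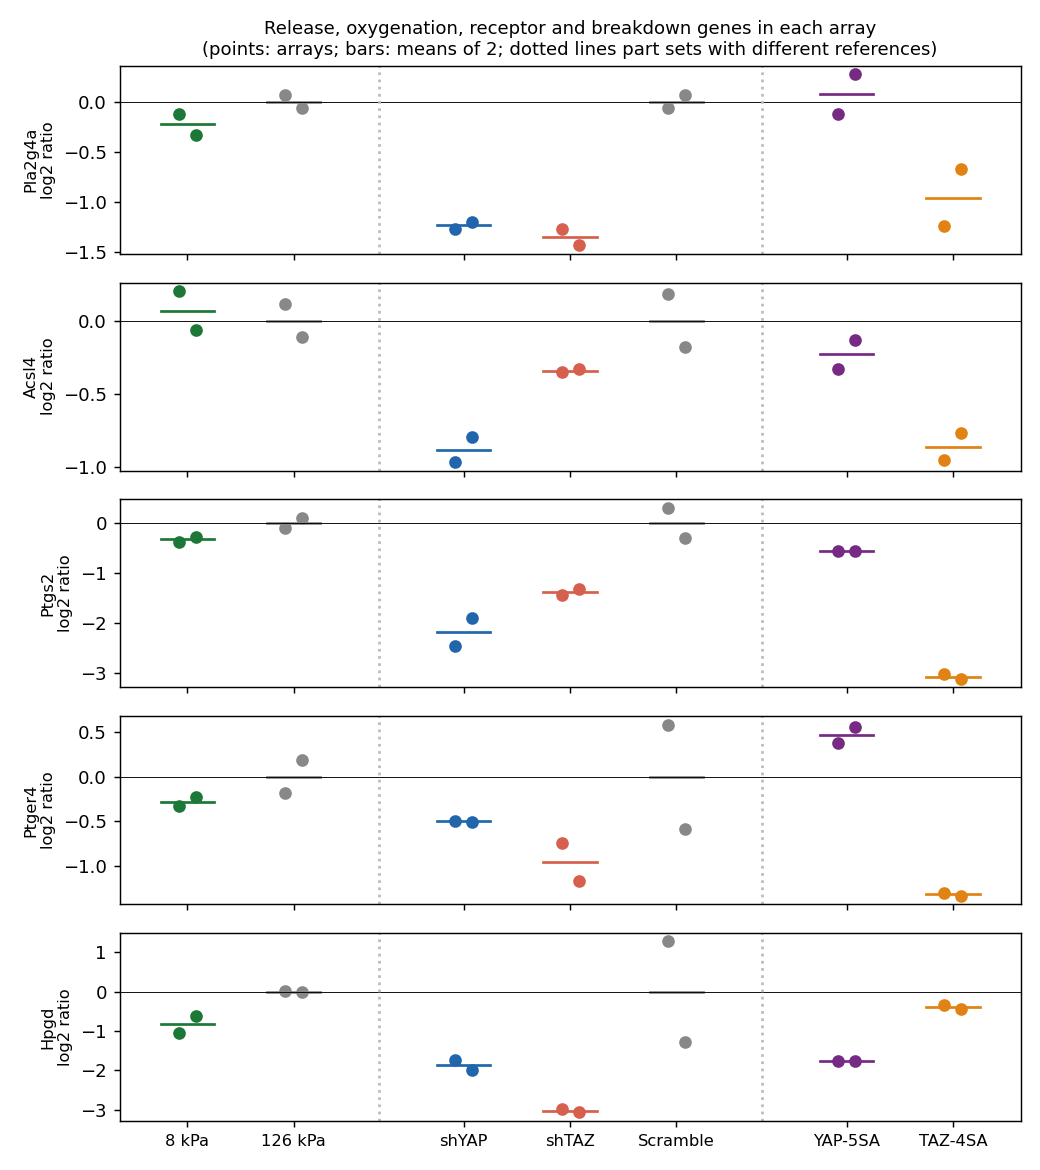
Log2 ratios of Pla2g4a, Acsl4, Ptgs2, Ptger4 and Hpgd in each array (points) with the means of 2 arrays (bars), the 3 sets being parted by dotted lines because their references differ. Pla2g4a, Acsl4, Ptgs2 and Ptger4 are lower in TAZ-4SA than in YAP-5SA arrays, whereas Hpgd is higher in TAZ-4SA arrays (-0.34 and -0.45) than in YAP-5SA arrays (-1.75 and -1.76).

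Ptgs2 belongs to the early and cytokine-induced genes, of which 22 others were measured. With shYAP, 19 of these were lower than with Scramble (median -0.56, against 0.05 over all features). The part of the macrophage level in this was not tested. At an unadjusted p under 0.05, 11 were lower, beside 7.39% of all features, and 1 was higher, beside 2520 of 22122 features. Of the 22, 1 passed the test, beside 0.533% of all features. This was Lif, a cytokine of the interleukin-6 family, which fell by 0.82 in log2 (SE 0.11, adjusted p = 0.0443 from limma), a call lost without Scramble array 1 (0.0661), without either shYAP array (0.286 and 0.245) and in the 14-array fit (0.15). Il1rn, the interleukin-1 receptor antagonist, was at -2.44 and -2.68 in shYAP arrays, against 0.57 and -0.57 in Scramble arrays, just short of the threshold (adjusted p = 0.0504 from limma). With shTAZ, 17 of 22 were lower (median -0.26) and none passed, while 7 were lower at an unadjusted p under 0.05, beside 5.71% of features. Between the knockdowns, Il6 was at -0.79 and -1.06 with shYAP, against 0.03 and -0.02 with shTAZ, and did not pass (difference -0.93, SE 0.13, adjusted p = 0.149 from limma). On the soft gel 12 of 22 were lower and none passed, while 5 reached an unadjusted p under 0.05, beside 10.6% of features. Cxcl2, a neutrophil chemokine, differed by -1.25 there (SE 0.17, adjusted p = 0.115 from limma), and Il6 by 0.81 (SE 0.14, adjusted p = 0.172 from limma). Between the mutants 16 of 22 were higher with YAP-5SA (median 0.25, against -0.01 over all features) and none passed, the largest difference being that of Ereg, an EGF-family ligand (0.82, SE 0.17, adjusted p = 0.104 from limma).

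Of 10 cAMP-induced genes, 2 passed between the mutants, in opposite directions, beside 0.895% of all features. Nr4a3, an orphan nuclear receptor and early gene, was at 0.37 and 0.41 in YAP-5SA arrays, against -0.68 and -1.13 in TAZ-4SA arrays (difference 1.30, SE 0.18, adjusted p = 0.0397 from limma). Rgs2, a regulator of G protein signaling, was at -0.72 and -1.13 in YAP-5SA arrays, against 0.23 and 0.39 in TAZ-4SA arrays (difference -1.23, SE 0.18, adjusted p = 0.0435 from limma). Without TAZ-4SA array 2 both calls were lost, with adjusted p of 0.0773 for Nr4a3 and 0.086 for Rgs2. The call of Rgs2 was also lost in the 14-array fit (adjusted p = 0.16, SE 0.41). With an ordinary t without moderation, neither Nr4a3 nor Rgs2 passed (adjusted p = 0.47 for each). With YAP-5SA, 8 of the 10 were higher, with a median of 0.64. With shYAP, Ppargc1a, a coactivator of mitochondrial genes, was at 2.04 and 1.66, against -0.31 and 0.31 in Scramble arrays, and rose by 1.85 (SE 0.23, adjusted p = 0.0393 from limma), a call lost without either shYAP array (0.286 and 0.245). It was the 1 gene of this list that passed there, beside 0.533% of all features, and none passed with stiffness, with shTAZ or between the knockdowns.

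The 22 YAP/TAZ target genes gave no call in any of the 5 comparisons. At an unadjusted p under 0.05, 9 of 22 were lower with shYAP, beside 7.39% of all features, 3 with stiffness, beside 4.69%, and 2 with shTAZ, beside 5.71%. With YAP-5SA 9 were higher at that threshold, beside 6.55%, and 2 lower, beside 7%. With shYAP, 17 of 22 were lower (median -0.20), and Ankrd1, a cardiac ankyrin repeat protein gene, was at -0.73 and -0.97, against -0.05 and 0.05 with Scramble (difference -0.85, SE 0.12, adjusted p = 0.0525 from limma). With YAP-5SA, 16 of 22 were higher than with TAZ-4SA (median 0.34), and Nt5e, the ecto-5-nucleotidase, differed by 1.12 (SE 0.18, adjusted p = 0.053 from limma).

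The genes whose pattern was most like that of Ptgs2 were sought over the 14 arrays, each value centred on the mean of its set, among 602 features whose SD was at least 0.5 times that of Ptgs2. Arrays of a set share their reference and the arrays that chose Ptgs2 are included, so r is a description. The highest Pearson r were those of Isg20 (0.96), Ch25h (0.95), Tnfaip2 (0.95), Sat1 (0.94) and Klf5 (0.93). Isg20, an interferon-stimulated exonuclease, differed by -1.13 with shYAP, by -0.42 with shTAZ and by 1.28 between YAP-5SA and TAZ-4SA. Ch25h makes 25-hydroxycholesterol, Tnfaip2 is a TNF-induced gene, Sat1 acetylates spermidine, and Klf5 is a zinc finger factor. The lowest r were those of Myom2 (-0.99), Myh6 (-0.97) and Myh7 (-0.96), genes of the sarcomere. Myh6, the alpha myosin heavy chain, differed by 1.55 with shYAP, by 1.06 with shTAZ and by -2.46 between YAP-5SA and TAZ-4SA. With stiffness it differed by -0.16, where Ptgs2 differed by -0.33, so Myh6 and Ptgs2 ran opposite only in the shRNA and mutant sets. Of 10 cardiomyocyte markers, 9 were higher with shYAP than with Scramble. Of these, 6 passed the test, and the 1 lower marker passed too, beside 0.533% of all features. All 10 were lower with YAP-5SA than with TAZ-4SA, 6 of them past the test, beside 0.895% of all features. The part of the cardiomyocyte share in the Ptgs2 values was not tested. With Spearman's rho in place of Pearson's r, Isg20 and Sat1 stayed among the highest 5. For Ptgis, compared in the same way with 15450 features, r was highest for Acsf2 (0.89), Arfip2 (0.88), Cnot6 (0.86), Arhgap1 (0.86) and Csf1 (0.85), and lowest for Mpo (-0.84), Oxr1 (-0.83) and Clps (-0.82).

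**Figure D5:**
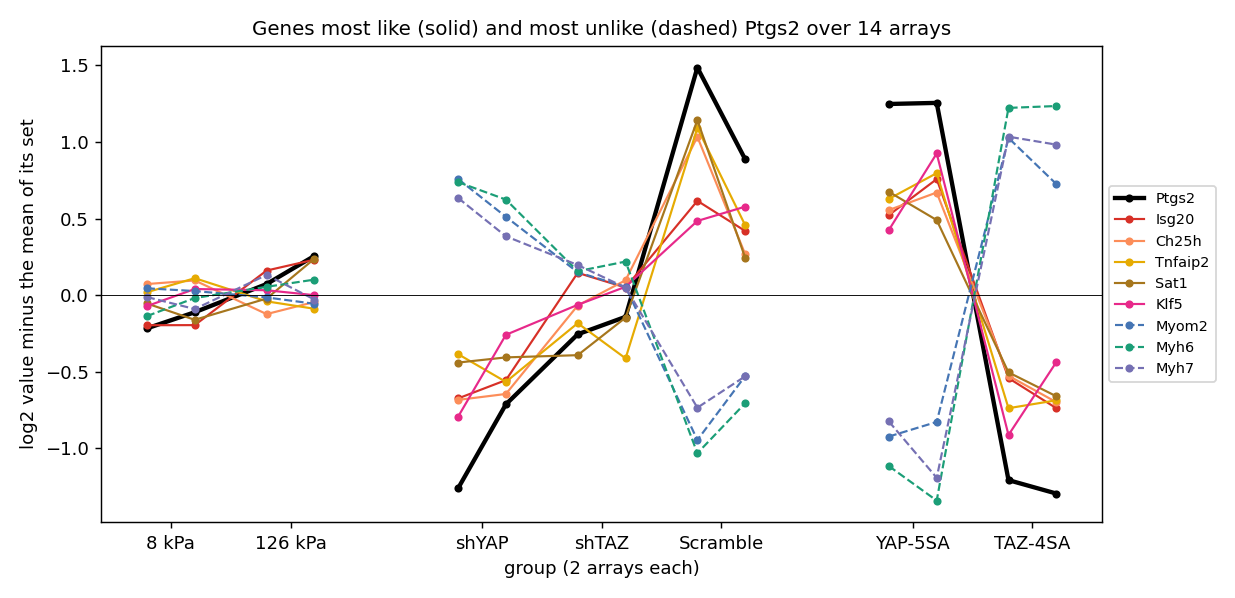
Values of Ptgs2, of the 5 genes with the highest Pearson r with it (solid lines) and of the 3 with the lowest (dashed lines) in 14 arrays, as log2 values minus the mean of their set. The 5 genes follow Ptgs2 in the shRNA and mutant sets, Myom2, Myh6 and Myh7 mirror it there, and all lie close to 0 in the stiffness set.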

How the data were processed

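RNA of 14 cultures was hybridized to Clariom S Mouse arrays. Per the submitters' processing notes the authors used Affymetrix Expression Console 1.4, and the deposited values are log2 ratios in 3 sets of arrays. They average to 0 over GHMT/126 kPa in the stiffness set and over Scramble in the shRNA set, whereas the reference of the mutant set is not stated. Ratios carry no signal level, so no filter on dim features and no comparison of levels between genes was possible, and the 2 arrays of a group limit the precision. No columns of other samples were used. Gene symbols came from the platform annotation, and coordinates, names and start regions from RefSeq tables (GRCm38.p6).

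Groups were compared within each set with limma 3.58.1 in R 4.3.3 (lmFit and eBayes), over the features without a missing value in that set, 22206 with 2 residual degrees of freedom in the stiffness set, 22122 with 3 in the shRNA set and 22127 with 2 in the mutant set. A feature passed at a Benjamini-Hochberg adjusted p under 0.05, and 2-fold means a difference of at least 1 in log2. The fit was tested on simulated data. A p-value here weighs a difference against the spread between the 2 samples of each group. This spread was pooled over the groups of the set and moderated by limma over all features. The members and gene lists were chosen with earlier results of these data known. List genes without a feature of their own symbol, such as Cd68, Pdgfra and Crem, were not analysed here. All members were described. From each pathway list, up to 3 genes with the largest difference per comparison could be named, and Lif was named because it was the single gene of its list that passed, after its values were seen. The genes most like a member were the 5 highest and 3 lowest by Pearson r. Alternatives were centring and quantile normalization of arrays, the replicate number as a block, 1 fit to all 14 arrays, a fit of the 4 arrays compared, an unmoderated statistic, a robust prior and each array left out in turn.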

Additional observations from a re-analysis of the deposited data

How the results depend on the processing

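With 2 arrays a group, an adjusted p rests on few residual degrees of freedom and the counts of calls moved with the setting. Quantile normalization gives every array of a set 1 distribution of values. The SD over features was 0.17 in GHMT/126 kPa arrays and 0.20 in Scramble arrays, against 0.36 to 0.45 in the arrays compared with them. Calls lost or directions changed under that setting cannot be told apart from this rescaling of the reference arrays. For the prostaglandin genes, 0 members passed with stiffness and between the knockdowns under every alternative run. With shTAZ, 0 passed in the main fit and 1 in 1 fit to all 14 arrays. This was Ptgs2, whose choice used the Scramble arrays, so that call is not support. The members at least 2-fold different with shYAP numbered 2, but 1 after quantile normalization and 1 to 3 with each array left out (1 without shYAP array 1, 3 without Scramble array 2). Between the mutants this number was 2 under every alternative. Centring each array on its median moved the pathway genes that passed to 1 with stiffness (0 without centring), 6 with shYAP (3) and 5 between the mutants (3).

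Over all features, calls with stiffness numbered 16, against 0 after quantile normalization, with the replicate block, with the unmoderated statistic and without any array, and 168 higher and 174 lower in the 14-array fit. With shYAP 71 higher and 47 lower passed, against 0 after quantile normalization, with the unmoderated statistic and without either shYAP array, 2 in the fit of 4 arrays, 250 and 318 in the 14-array fit, and 832 and 1105 without Scramble array 2. With shTAZ 0 passed, against 3 higher and 6 lower with the robust prior, 115 and 277 in the 14-array fit, and 17 and 130 without Scramble array 1. Between the knockdowns 10 passed, against 0 after quantile normalization, with the unmoderated statistic and without any array, and 17 higher and 23 lower in the 14-array fit. Between the mutants 89 higher and 109 lower passed, against 0 with the unmoderated statistic, 303 and 244 in the 14-array fit, 465 and 416 without YAP-5SA array 1, and 75 and 68 without TAZ-4SA array 2.

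Same-numbered arrays are not stated to be paired. Their deviations correlated at -0.02 to 0.20, which does not settle whether they were paired, so the replicate number served only as an alternative. With the replicate number as a block, 22 higher and 9 lower features passed with shYAP, 0 with shTAZ, 1 between the knockdowns, and 136 higher and 158 lower between the mutants. Under this block the calls of Pla2g4a (0.0583), Lif (0.0827), Ppargc1a (0.0775) and Yap1 (0.0887) with shYAP were lost as adjusted p from limma, and that of Hpgd between the mutants was not (0.0209). The same 4 calls with shYAP were also lost after quantile normalization, in the fit of 4 arrays and with the unmoderated statistic.

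Several differences changed direction. Ptgds with shYAP, at -1.06, was at 0.0395 after quantile normalization. Nr4a3 with shYAP was at -0.0132 after centring and -0.00403 after quantile normalization, Il6 with shTAZ at -0.0355 and -0.0308, and Ppargc1a between the knockdowns at -0.0751 after quantile normalization. With each array left out, differences with stiffness ran over -0.0662 to 0.20 for Acsl4, -0.18 to 0.0441 for Nr4a3, -0.30 to 0.19 for Ptger1, -0.0661 to 0.17 for Ptger3, -0.20 to 0.0322 for Ptgir, -0.56 to 0.18 for Tbxas1 and -0.0219 to 0.0986 for Yap1. With shYAP they ran over -0.18 to 0.25 for Nr4a3, -0.32 to 0.0323 for Ptgir, -0.21 to 0.0901 for Slco2a1 and -0.15 to 0.35 for Wwtr1, and with shTAZ over -0.0694 to 0.0806 for Il6. Between the mutants they ran over -0.46 to 0.63 for Tbxas1, -0.47 to 0.15 for Ptgir and -0.11 to 0.96 for Lif. The cause of these changes was not tested. Since the files give ratios, signal over background cannot be judged for any gene.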
